A study of Arabidopsis thaliana with 15 samples.

Results

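The step from dry seed to cold stratified seed was examined in 6 of the 15 MethylC-seq libraries of a germination time course of Arabidopsis thaliana, wild type accession Col-0. The 3 libraries termed 48 h S came from whole seeds kept for 48 h on MS medium in the dark at 4 °C (stratification), and the 3 libraries termed 0 h came from dry seeds; all seeds had been dried for 14 days in the dark. The 6 libraries were taken because their labels name these time points, and no measured value was used to choose them. The other 9 libraries came from stratified seeds after 6, 24 and 48 h under constant light at 22 °C. They are termed SL with the hour in front (as in 48 h SL), and are used to decide which windows had enough calls in all 15 libraries, to define classes of sequence, to estimate the spread between replicates and to set a scale. The question was whether imbibition in the cold and dark changes DNA methylation. A whole seed holds embryo, endosperm and seed coat, so a level is a mean over all their genomes, and a changed share of one tissue cannot be told apart from a changed level within a tissue.

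Plants methylate cytosine in 3 sequence contexts, CG, CHG and CHH, where H is A, C or T. CG methylation is copied onto the new strand at replication by MET1, CHG methylation is maintained largely by CMT3, and CHH methylation is set by CMT2 in heterochromatin and by DRM2 under the guidance of small RNAs (RNA-directed DNA methylation). CG methylation alone marks the bodies of many genes, while all 3 contexts together mark transposons and other silent sequence. Methylation is lost either when replication is not followed by copying or when DNA glycosylases such as ROS1 and DME remove the base.

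Each library gives, for every cytosine of chromosomes 1 to 5, the number of methylated and unmethylated calls, that is, of deduplicated reads in which the bisulfite-treated base was still C or had become T. The 48 h S libraries held 330391260 to 428839380 calls (7.71 to 10.01 per cytosine), against 196088777 to 272191204 calls (4.58 to 6.35 per cytosine) in the 0 h libraries, so every 48 h S library was deeper than every 0 h library. The 95% Wilson intervals of the genome levels were at most 0.0346 percentage points wide; they cover counting error only, and depth therefore did not limit the genome values. All positions in the table matched a cytosine on the stated strand of the reference genome. The 3 replicates of a time point are described by the study as biological replicates. With 3 libraries against 3 an exact permutation test cannot give a p below 0.1, so for single values the text also states whether the libraries of the groups overlapped.

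Over all calls, methylation was lower in 48 h S in each context, but the 3 differences were small beside the levels. CG methylation was 25.78, 26.53 and 26.02% in the 48 h S libraries, against 26.49, 26.73 and 27.51% in the 0 h libraries. The means were 26.1 ± 0.38% in 48 h S and 26.9 ± 0.53% in 0 h (SD, n = 3 each), a difference of -0.80 points, and the groups overlapped (exact 2-sided permutation p = 0.2, adjusted over 3 contexts p = 0.2). CHG methylation was 10.24, 10.86 and 10.51% in 48 h S, against 10.87, 10.98 and 11.63% in 0 h, a difference of -0.63 points. CHH methylation was 5.48, 5.89 and 5.73% in 48 h S, against 5.94, 5.95 and 6.42% in 0 h, a difference of -0.41 points. In CHG and CHH the 48 h S libraries all lay below the 0 h libraries (exact permutation p = 0.1 each, the smallest possible, adjusted p = 0.15), though in CHG the closest pair of libraries differed by only -0.0056 points. The 0 h replicate 3 was the highest library in every context, and without it the differences shrank to -0.50, -0.39 and -0.25 points for CG, CHG and CHH.

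The direction turned when each 300-bp window, and not each call, counted equally. Windows were used where every one of the 15 libraries had at least 20 calls on at least 3 cytosines of the context, which held for 262730 windows in CG, 298621 in CHG and 384796 in CHH. Mean CG methylation per window was 24.50, 24.54 and 24.51% in 48 h S, against 24.41, 24.39 and 24.48% in 0 h. The 48 h S libraries all lay above the 0 h libraries, by 0.089 points on average (exact permutation p = 0.1, adjusted p = 0.3). The separation in CG was lost with windows of at least 40 calls (0.070 points) and with windows of 1000 bp (0.058 points). The CHG and CHH differences were 0.070 and 0.030 points with overlapping libraries (exact permutation p = 0.2 and p = 1), and that in CHH was -0.031 points with windows of 1000 bp. Counting each cytosine with at least 4 calls in all 6 libraries equally gave 0.087 points for CG (26.69 ± 0.0070% in 48 h S and 26.60 ± 0.048% in 0 h, no overlap), 0.082 for CHG and 0.084 for CHH (both overlapping).

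**Figure D1:**
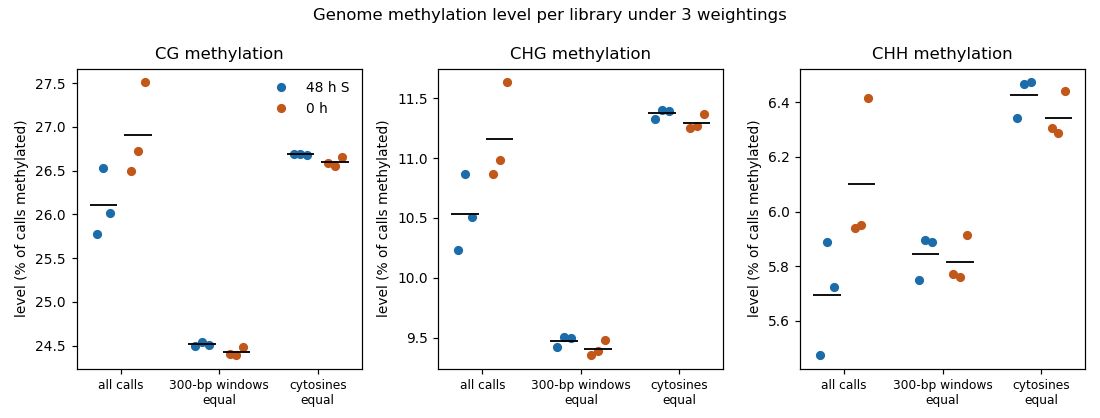
Genome methylation level (y axis, % of calls methylated; the axes do not start at 0) of each of the 3 libraries of 48 h S (blue, left) and of 0 h (orange, right) in CG, CHG and CHH, over all calls, with 300-bp windows equal and with cytosines equal; black lines are means. Over all calls the mean differs by -0.80 points in CG, while with windows equal it is higher by 0.089 points and the libraries draw close together.

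A difference in the same direction also appeared in sequence without methylation. Windows in which the 9 light libraries together had levels below 2% in all contexts (217538 windows) gave a CG level of 0.312, 0.330 and 0.318% in 48 h S, against 0.234, 0.289 and 0.299% in 0 h. These values measure unconverted or misread cytosines plus any methylation below that limit, and the groups did not overlap. The means were 0.320% in 48 h S and 0.274% in 0 h for CG, 0.293% and 0.249% for CHG, and 0.335% and 0.275% for CHH, where the libraries overlapped. After each library's own background was subtracted, the difference with windows equal was 0.044 points in CG, still without overlap, 0.025 in CHG and -0.030 in CHH.

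The same change of sign was seen over the whole genome when background was not subtracted. The windows-equal values by trinucleotide, chromosome and bin below all include the background. For the genome as a whole its subtraction left the CHH difference at -0.030 points, the same sign as over calls. Over all calls, all 16 trinucleotides were lower in 48 h S, with differences of -0.24 points for CCT to -0.99 points for CGG, and 11 of the 16 showed no overlap of the libraries. With windows equal none of the 16 was lower, the differences were 0.0187 to 0.0968 points, and the 4 CGN trinucleotides alone showed no overlap (exact permutation tests adjusted over 16, p = 0.15 to 0.2 for calls and 0.4 to 1 for windows). CAA and CTA, which CMT2 prefers, gave -0.52 and -0.58 points over calls but 0.057 and 0.058 points with windows equal, with overlap in the windows. Of the 15 combinations of chromosome and context, 15 were lower over calls (9 without overlap) and 0 were lower with windows equal (5 higher without overlap, which were CG on each of the 5 chromosomes; exact permutation tests adjusted over 15, p = 0.17 to 0.3 for calls and 0.3 to 1 for windows). The trinucleotides and chromosomes share the same 6 libraries, so these are not separate tests.

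In 240 bins of 500 kb, CG methylation over calls was lower in 48 h S in 165 bins and higher in 75, while with windows equal it was lower in 28 and higher in 212. For CHG the counts were 214 lower and 26 higher over calls, and 14 lower and 226 higher with windows equal. For CHH they were 228 lower and 12 higher over calls, and 44 lower and 196 higher with windows equal. The median bin moved by -0.12, -0.16 and -0.20 points over calls in CG, CHG and CHH, and by 0.092, 0.053 and 0.040 points with windows equal. With windows equal, and background not subtracted, no bin differed by more than 0.68 points in any context. The largest bin differences over calls were increases, of 11.8 points for CG, 7.03 for CHG and 2.43 for CHH.

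**Figure D2:**
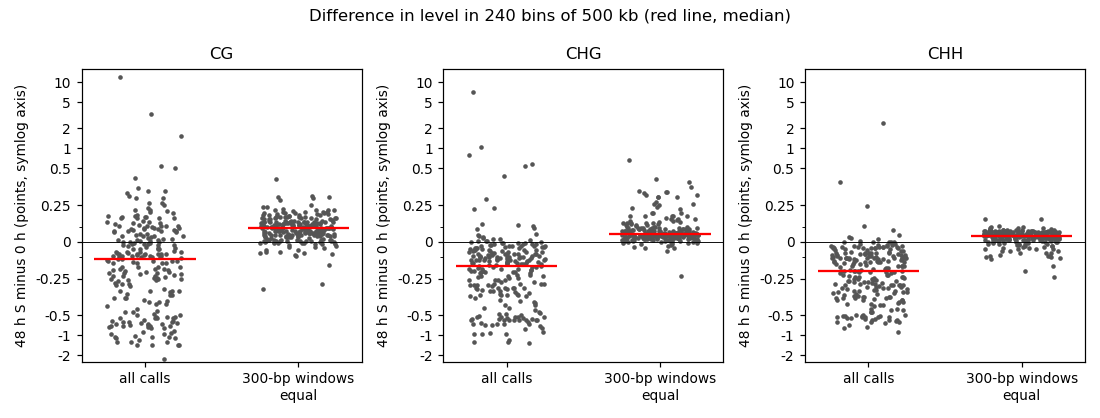
Difference in methylation level, 48 h S minus 0 h (y axis, percentage points, symlog scale, linear between -0.5 and 0.5), in 240 bins of 500 kb for CG, CHG and CHH; each dot is a bin at a random sideways offset and the red line is the median. Over all calls most bins lie below 0, down to -2.26 points in CG, and with windows equal most lie above 0 and within a narrow band. Background is not subtracted.

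The all-calls change was therefore split into a part from the level of each window and a part from the share of calls that fell in it. Of the -0.80 points in CG, window levels contributed 0.081 points and shares of calls -0.88 points. Window levels contributed 0.072 points to CHG and 0.036 to CHH, and shares of calls -0.70 and -0.44 points. The shares lowered the 48 h S level in 9 of 9 pairs of one 48 h S and one 0 h library in each context. The part from levels was above 0 in 9 of 9 pairs in CG, 8 of 9 in CHG and 4 of 9 in CHH.

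Methylated sequence was read less often in 48 h S, relative to the library mean. Windows with CHH methylation of at least 40% in the light libraries (5254 windows) had a relative depth of 1.02, 1.09 and 1.06 in 48 h S, against 1.18, 1.17 and 1.28 in 0 h, a change of -12.7% between the means. The change was -7.20% where CHH methylation was 20 to below 40% (31518 windows) and -4.80% where it was 5 to below 20% (45603 windows). Unmethylated windows were instead 1.47% higher in 48 h S, and windows with CG methylation only (55601 windows, mostly the pattern of gene bodies) were 4.77% higher. The libraries of the groups did not overlap in any of these 5 classes. Base composition moved with depth as well, with the windows in 5 groups of similar number (75330 to 84053) by G and C content. The relative depth of the poorest group changed by -5.91% in 48 h S, without overlap. That of the richest changed by 5.20%, with overlap. The median G and C content was 28.7% in windows with CHH of at least 40% and 35.3% in unmethylated windows. Within the 5 groups, from poorest to richest, windows with CHH of at least 5% changed in 48 h S by -9.54, -6.27, -7.34, -5.12 and -1.81%, and the libraries did not overlap in the first 3. Unmethylated windows of the same groups changed by -3.83, -0.83, 1.95, 4.51 and 8.88%, and the libraries did not overlap in the last 3. Whether the cause lies in the seeds or in the preparation of the libraries was not tested.

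**Figure D3:**
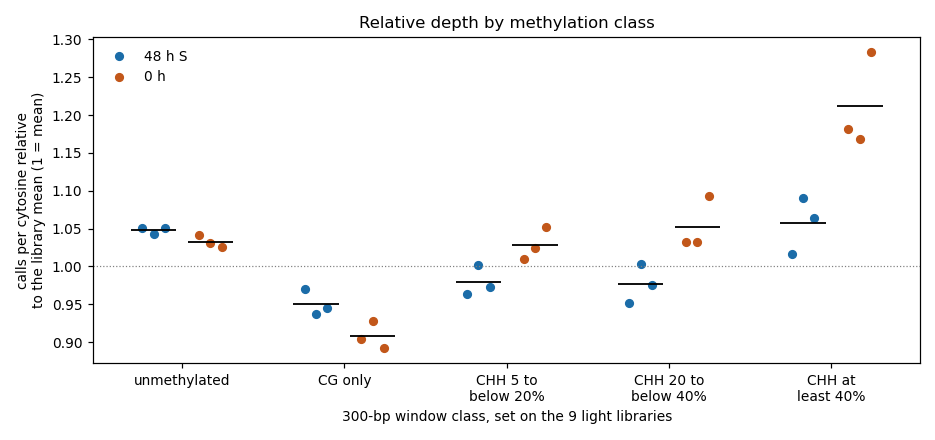
Calls per cytosine relative to the library mean (y axis, 1 is the mean; the axis does not start at 0) in 5 classes of 300-bp windows set on the 9 light libraries, for the 3 libraries of 48 h S (blue, left) and of 0 h (orange, right), with black lines at the means. In windows with CHH of at least 40% the 48 h S mean is 1.06 and the 0 h mean 1.21, while in CG only windows the order is the opposite, 0.951 in 48 h S and 0.908 in 0 h.

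Within these 5 classes the mean difference in level was between -0.56 and 0.42 points in every context, over calls and with windows equal. CG only windows had CG levels of 54.97, 55.07 and 55.00% in 48 h S, against 54.81, 54.74 and 54.83% in 0 h with windows equal, which is 0.22 points higher without overlap; over calls the difference was 0.21 points, also without overlap. Windows with CHH of at least 40% had CHH levels of 60.17, 60.86 and 60.89% in 48 h S, against 60.86, 60.47 and 61.47% in 0 h, a difference of -0.29 points with overlap. Windows with CHH of 20 to below 40% had a CHH mean of 31.9% in 48 h S and 32.1% in 0 h, and those with 5 to below 20% had 17.4% in both, again with overlap. Over calls the other contexts of these classes separated in part. Windows with CHH of at least 40% were lower without overlap in CG (84.8% in 48 h S and 85.1% in 0 h) and CHG (71.003% in 48 h S and 71.559% in 0 h), and windows with 5 to below 20% were higher without overlap in CG (82.9% in 48 h S and 82.5% in 0 h) and CHG (49.7% in 48 h S and 49.3% in 0 h). With windows equal the libraries overlapped in all 4 of these values. A small class of 239 windows with CHG methylation and little CHH had a CG level of 63.8% in 48 h S and 61.9% in 0 h over calls, without overlap, but differed by 0.31 points with overlap when windows counted equally. By annotation, CG methylation over calls was 16.04 ± 0.095% in 48 h S gene bodies and 16.07 ± 0.14% in 0 h gene bodies (SD, n = 3 each). In the 1 kb upstream of genes CG methylation was 13.8% in 48 h S and 14.4% in 0 h, and in pseudogenes 81.6% in 48 h S and 81.9% in 0 h, and outside all of these 39.5% in 48 h S and 40.6% in 0 h. The libraries overlapped in each of these 4 features.

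The bin with the largest CG increase over calls, at 3.0 to 3.5 Mb of chromosome 2, holds most of an insertion of mitochondrial DNA in the pericentromere of Col-0. Over the 3.2 to 3.6 Mb region around it CG methylation over calls was 33.3, 32.2 and 36.0% in 48 h S, against 27.1, 21.4 and 23.8% in 0 h. CHG and CHH were higher in 48 h S too (22.5% in 48 h S and 16.2% in 0 h for CHG, 9.01% and 6.79% for CHH), without overlap. Its relative depth was 0.71 in 48 h S and 1.10 in 0 h, a change of -35.4%. Windows that share at least 50% of their 50-base words with the mitochondrial genome numbered 911, of which 898 lay here (chr2:3239101-3509700). In them unmethylated CG calls, relative to the library mean, were at 0.585, 0.645 and 0.522 in 48 h S, against 0.870, 1.30 and 1.18 in 0 h, which is 0.523 times the 0 h mean. Methylated CG calls were at 0.0689, 0.0766 and 0.0663 in 48 h S, against 0.0913, 0.117 and 0.118 in 0 h, which is 0.648 times. On chromosome 2 beside the insertion the ratios were 0.917 for unmethylated and 0.923 for methylated calls, and CG methylation was 82.2% in 48 h S and 82.1% in 0 h. Reads of the organelle and of the nuclear copy cannot be told apart in these windows, so their rise in level does not measure the nuclear copy alone.

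**Figure D4:**
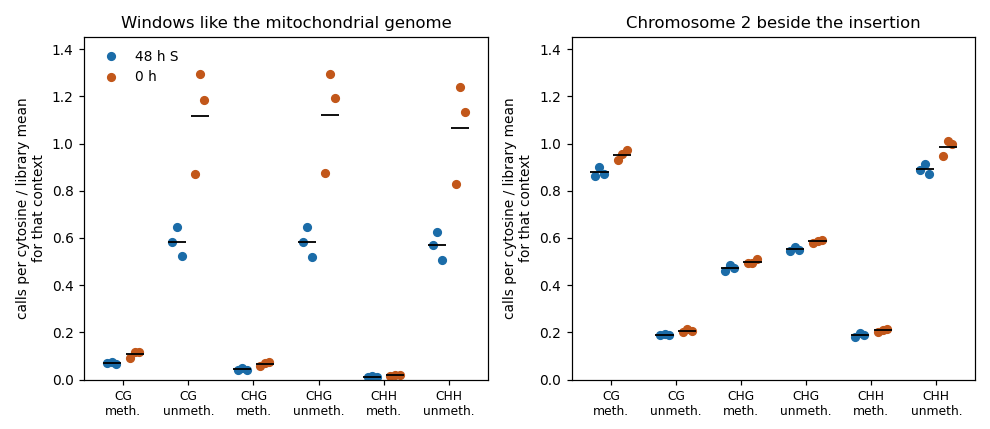
Methylated and unmethylated calls per cytosine divided by the library mean over all calls of the context (y axis), in windows like the mitochondrial genome and on chromosome 2 beside the insertion, for the 3 libraries of 48 h S (blue, left) and of 0 h (orange, right), with black lines at the means. Unmethylated CG calls in the windows like the mitochondrial genome average 0.584 in 48 h S and 1.12 in 0 h, while beside the insertion the ratios of 48 h S to 0 h are 0.923 for methylated and 0.917 for unmethylated CG calls.

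Single windows were then tested with a quasi-binomial model over all 15 libraries, and a window was called at a Benjamini-Hochberg adjusted p below 0.05 with at least 20 points of difference. Between 48 h S and 0 h no window was called, which is 0% of the windows in CG, in CHG and in CHH, and with no minimum difference 0 windows had an adjusted p below 0.05. In CHH 9 windows passed at that limit without 0 h replicate 1 (smallest adjusted p = 0.00042), 2 without 0 h replicate 3 and 2 with a replicate block (smallest 0.036 and 0.049), and none of these reached 20 points. At an unadjusted p below 0.05 there were 7745 windows in CG (3929 higher in 48 h S), 7818 in CHG (3851 higher) and 25561 in CHH (18855 higher). These were 2.95, 2.62 and 6.64% of the tested windows. Where nothing differs, a well calibrated test passes a share of about 0.05 at that limit. limma called 0 and edgeR 0 windows in each context. At an unadjusted p below 0.05 limma had 37693 of 262730 CG, 53873 of 298621 CHG and 19347 of 384796 CHH windows. Of these, 2146, 692 and 5612 were higher in 48 h S. The limma ratios add 1 to both counts, so they vary with depth where methylated calls are few, and every 48 h S library was deeper. How far this set their direction was not tested. With edgeR there were 5364 of 256626 CG, 4703 of 292402 CHG and 19482 of 384785 CHH windows. Of these, 2595, 1952 and 14963 were higher in 48 h S. Of the 18855 CHH windows that were higher, 11931 were unmethylated windows, a class that made up 217237 of the 384796 tested. The median CHH difference in that class was 0.065 points.

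The libraries of the groups did not overlap and 48 h S was higher in 3.63% of CG windows, 3.37% of CHG windows and 8.23% of CHH windows, and lower in 2.45, 1.56 and 3.04%. In windows with CHH of at least 40% the order was the other way in CHH, with 4.61% higher and 6.76% lower. Where the groups do not differ and no values tie, the libraries fail to overlap with a probability of 0.1, both directions counted. The same model and threshold gave, for 48 h SL against 48 h S, 18 CG windows (0.00685%, 10 of them higher), 303 CHG windows (0.101%, 301 lower) and 7090 CHH windows (1.84%, all lower). The test thus made calls with the same replication in the later interval. Between 6 h SL and 48 h S it called 0 windows in each context. At an unadjusted p below 0.05 there were 7916 of 262730 CG, 8007 of 298621 CHG and 25452 of 384796 CHH windows. The 95% interval of the 48 h S minus 0 h difference stayed within 20 points of 0 for 99.3% of CG, 99.7% of CHG and 99.9% of CHH windows, and within 10 points for 83.5, 88.5 and 96.1%. Among windows at 5% methylation or more the shares within 10 points were 55.7% in CG, 34.7% in CHG and 82.2% in CHH. Changes of under 10 points in a single methylated window were therefore often not detectable at this depth. The intervals were not adjusted for the number of windows, whereas the calls were. Changes of 20 points or more in a single window could thus go uncalled as well. Intervals and calls used a dispersion moderated towards that of windows with similar information. The median prior had 10000 degrees of freedom in each context, so for many windows the class and not the window's own replicates set the spread.

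As examples, up to 3 windows of smallest p per context and direction were examined among those with at least 20 points and no overlap. These were 10 windows, none was called, and their adjusted p (quasi-binomial model) were 0.68 to 0.86. In CG, 2 were higher and 3 lower in 48 h S. Their sequences are shown because the position of the CG sites decides how the window level is read; capitals mark each CG that lies whole in the window, on the forward strand of TAIR10, from the RefSeq assembly.
chr4:12112801-12113100, upstream of AT4G23120: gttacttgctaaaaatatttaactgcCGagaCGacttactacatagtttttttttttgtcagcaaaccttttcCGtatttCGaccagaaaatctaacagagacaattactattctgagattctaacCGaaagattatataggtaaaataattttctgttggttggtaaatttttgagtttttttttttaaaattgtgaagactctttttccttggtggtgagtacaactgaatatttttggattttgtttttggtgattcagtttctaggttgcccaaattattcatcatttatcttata
chr3:1244101-1244400, in AT3G04600: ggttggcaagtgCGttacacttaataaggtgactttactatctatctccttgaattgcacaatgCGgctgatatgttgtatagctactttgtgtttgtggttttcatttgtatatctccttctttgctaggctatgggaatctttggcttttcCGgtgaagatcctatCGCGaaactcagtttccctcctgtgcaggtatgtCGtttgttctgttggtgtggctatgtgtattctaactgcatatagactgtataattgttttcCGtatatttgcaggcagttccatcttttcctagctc
chr4:989101-989400, in RSH1: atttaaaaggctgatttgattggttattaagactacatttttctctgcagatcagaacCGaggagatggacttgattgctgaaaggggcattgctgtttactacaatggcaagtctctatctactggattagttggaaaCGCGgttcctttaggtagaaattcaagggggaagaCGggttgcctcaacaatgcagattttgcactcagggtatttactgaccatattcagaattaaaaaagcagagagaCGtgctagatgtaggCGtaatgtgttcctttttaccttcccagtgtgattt

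The first lies 208 bp upstream of AT4G23120, annotated as a BAH domain protein, outside any exon. Its CG level was 71.9, 72.4 and 70.8% in 48 h S, against 54.1, 46.8 and 48.5% in 0 h, on 47 to 128 calls per library. All 6 of its CG sites were higher in 48 h S, by 6.06 to 33.1 points, and the mean over sites was 73.0% in 48 h S and 52.7% in 0 h; the site without capitals in the sequence spans the window's first base. CHG methylation in it was also higher without overlap (17.7% in 48 h S and 7.55% in 0 h), while CHH overlapped (9.08% and 6.18%). It belongs to the class with CHH of 5 to below 20%. The other higher window, chr3:10743001-10743300, lies 469 bp upstream of AT3G28670, annotated as a zinc-binding dehydrogenase, with 61.3, 62.9 and 70.9% in 48 h S, against 44.8, 43.2 and 45.6% in 0 h, and 3 of its 3 sites were higher.

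In the bodies of AT3G04600, annotated as a nucleotidylyl transferase, and RSH1, a chloroplast RelA/SpoT homolog that acts in the metabolism of the alarmone ppGpp, the lower window level came largely from where calls fell. The AT3G04600 window holds 117 exonic bases, all coding, and had 26.4, 29.3 and 24.0% CG methylation in 48 h S, against 44.9, 56.6 and 48.2% in 0 h. Of its 7 sites, 4 were at 0% in both groups and 3 were methylated. The 3 stood at 68.8, 90.6 and 100% in 48 h S, against 93.9, 96.8 and 96.9% in 0 h, so the first was lower itself. The 3 held 30.7% of the calls in 48 h S and 51.3% in 0 h. With sites equal the means were 37.1% in 48 h S and 41.1% in 0 h. The RSH1 window holds 159 exonic bases, all coding, and had 26.7, 27.3 and 20.6% in 48 h S, against 38.6, 52.3 and 47.5% in 0 h. Its 2 methylated sites stood at 87.8 and 86.1% in 48 h S, against 89.5 and 95% in 0 h. They held 27.0% of the calls in 48 h S and 48.1% in 0 h, and with sites equal the means were 29.7% in 48 h S and 31.8% in 0 h.

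The third lower window, chr4:13537801-13538100, 569 bp downstream of AT4G26960, was lower at 3 of 3 sites, with 65.2% in 48 h S and 85.4% in 0 h as the mean over sites. Its CHG methylation was lower too, at 58.3% in 48 h S and 68.4% in 0 h, without overlap. In CHG, chr1:16342501-16342800 was higher (40.5% in 48 h S and 19.8% in 0 h), while chr1:16841701-16842000, 3139 bp upstream of ILL6, an amidohydrolase of hormone conjugates, and chr3:14190001-14190300 were lower (49.7% in 48 h S and 72.6% in 0 h, and 48.8% in 48 h S and 70.4% in 0 h). In both of these CHH was lower without overlap as well. In CHH, chr3:17276701-17277000 was higher (54.8% in 48 h S and 29.0% in 0 h) and chr3:11658901-11659200 in the pseudogene AT3G29777 was lower (27.2% in 48 h S and 48.9% in 0 h). The change in the last shrank to -13.6 points without 0 h replicate 2. Others in this paragraph also fell below 20 points when a single library was left out. The chr1:16342501 window moved to 15.2 points without 48 h S replicate 1, and chr3:14190001 to -18.0 without 0 h replicate 3. The chr3:17276701 window moved to 18.9 points without 0 h replicate 1, and chr4:13537801 to -19.9 without 48 h S replicate 2. The window upstream of ILL6 stayed at -20.8 points or lower.

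**Figure D5:**
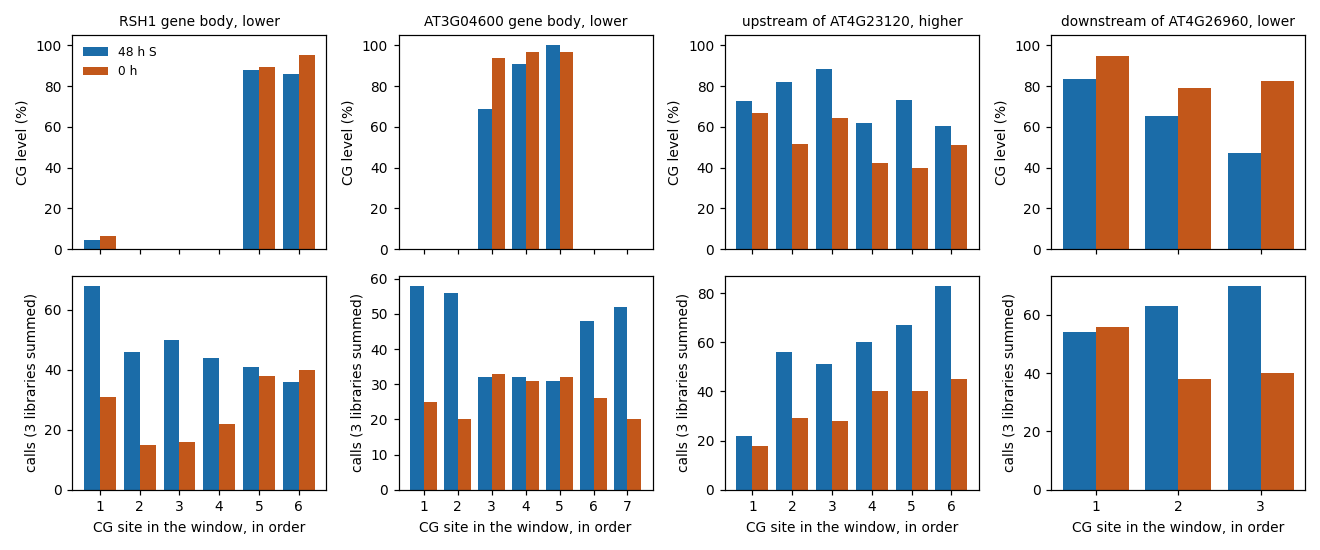
CG level (upper row, % of calls methylated) and calls summed over the 3 libraries (lower row) at each CG site of 4 windows, numbered in order along the window, in 48 h S (blue, left) and 0 h (orange, right). Calls are not scaled to library depth, which was higher in every 48 h S library, so equal numbers of calls mean a lower relative depth in 48 h S. In the RSH1 and AT3G04600 windows the methylated sites have similar numbers of calls in 48 h S and 0 h while the unmethylated sites have more calls in 48 h S. In the other 2 windows the level of every site differs in the same direction.

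Genes were tested as whole bodies and as the 1 kb upstream of them. No gene was called in any context, which is 0% of 26849 to 27197 bodies and 0% of 27060 to 27228 upstream regions (quasi-binomial model). At an unadjusted p below 0.05 there were 1619 of 26878 bodies in CG, 1746 of 26849 in CHG and 1397 of 27197 in CHH. For upstream regions the counts were 1886 of 27060, 1968 of 27078 and 1286 of 27228. Where nothing differs, a well calibrated test passes a share of about 0.05. With no minimum difference 4 bodies or upstream regions had an adjusted p below 0.05, all at low levels, and they were singled out after their values were seen. AT1G45163 and AT1G45165 overlap and count as one place (chr1:17090677-17091464); CHG methylation in AT1G45163 was 5.54, 2.04 and 4.07% in 48 h S, against 0.397, 0.463 and 0% in 0 h (adjusted p = 0.012, and 0.016 for AT1G45165), and neither passed without 48 h S replicate 1 or any one of the 0 h libraries (smallest adjusted p over CHG bodies 0.061 to 0.47). Upstream of NAC038, a NAC family transcription factor, CG methylation was 0.265, 0.369 and 0% in 48 h S, against 4.35, 2.21 and 3.01% in 0 h (adjusted p = 0.016), and no upstream region passed in CG when any one library other than 0 h replicate 2 was left out (smallest adjusted p 0.053 to 0.69). SCRL10, a small cysteine-rich protein gene, had CHH methylation of 0.805, 0.3996 and 0.855% in 48 h S, against 1.96, 0.156 and 6.51% in 0 h (adjusted p = 0.0036); the libraries overlapped, and no CHH body passed without 0 h replicate 3 (smallest adjusted p = 0.60) or without 48 h S replicate 1 or 2 (0.092 and 0.11).

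Uneven coverage within a gene was examined in MEE23, a gene of the berberine bridge enzyme family named for a maternal effect on embryos. When 1 dispersion prior was used for all genes, an alternative added after seeing the data, 10 bodies had an adjusted p below 0.05 in CHG, and MEE23 had the smallest (adjusted p = 0.00036). In the same fit no body passed in CG or CHH, and no upstream region in any context. SCRL10 and NAC038 thus did not pass (quasi-binomial model, smallest adjusted p 0.12 over CHH bodies and 0.31 over CG upstream regions). The body CHG level of MEE23 was 14.0, 15.7 and 15.3% in 48 h S, against 19.6, 24.7 and 23.5% in 0 h, without overlap. It has 3 methylated windows of 13, and they held 16.7, 18.9 and 18.1% of the calls in 48 h S, against 22.8, 30.1 and 27.4% in 0 h. The levels of these windows overlapped, with means of 77.4, 81.5 and 55.1% in 48 h S and 77.1, 83.6 and 58.5% in 0 h. With windows equal the body stood at 16.8 ± 0.47% in 48 h S and 17.1 ± 0.33% in 0 h (SD, n = 3 each). Values by windows, here and for the single genes below, take whole windows that overlap the gene. They can thus include bases beyond its ends, while the values by calls of these genes cover the gene alone. The window with the highest level is shown with the C and G of each CHG that reads so on the forward strand in capitals, as an example of sequence that was at over 80% in both groups and took fewer of the gene's calls in 48 h S.
MEE23, chr2:14676001-14676300: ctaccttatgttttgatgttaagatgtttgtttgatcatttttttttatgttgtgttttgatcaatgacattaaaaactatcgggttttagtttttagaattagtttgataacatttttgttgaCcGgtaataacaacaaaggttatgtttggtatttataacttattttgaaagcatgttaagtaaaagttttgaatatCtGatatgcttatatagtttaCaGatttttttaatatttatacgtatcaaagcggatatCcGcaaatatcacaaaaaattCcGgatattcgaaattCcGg

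Of the other 9, 4 were higher in 48 h S and 5 lower. The higher ones were AT1G45163 and AT1G45165, described above, and AT2G07715 and AT2G07656, which lie in the mitochondrial insertion. Among the lower ones, AT4G02320 (10.4% in 48 h S and 15.5% in 0 h by calls, 9.57% and 9.62% by windows), AT2G45380 (10.5% in 48 h S and 14.6% in 0 h by calls, 13.6% and 14.1% by windows) and AT3G27470 (7.01% in 48 h S and 10.1% in 0 h by calls, 10.2% and 10.6% by windows) also drew together when windows counted equally, though 1 of the 3 methylated windows of AT3G27470 was lower without overlap (22.5% in 48 h S and 32.6% in 0 h). AT3G29110 stayed apart, with 9.36 ± 0.33% in 48 h S and 10.1 ± 0.20% in 0 h by windows. ATMAP65-6, a microtubule-associated protein gene, also stayed apart, with 6.04 ± 0.20% in 48 h S and 6.91 ± 0.17% in 0 h by windows. One of its windows, chr2:416401-416700, was at 49.8, 52.0 and 50.9% in 48 h S, against 63.0, 67.8 and 65.7% in 0 h. Among the 2105 bodies with both unmethylated windows and windows with CHH of at least 5%, the median CG difference was -0.26 points by calls and 0.056 points by windows. The share of calls in their methylated windows was lower in 48 h S in 70.2% of them, with a median of -0.74 points.

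Genes with roles in methylation, dormancy, cold and seed filling did not pass. None of 17 genes for DNA methylation and demethylation, 4 genes silenced by methylation, 18 genes of dormancy, abscisic acid and gibberellin, 9 cold response genes and 12 seed storage genes had an adjusted p below 0.05 in body or upstream region in any context (quasi-binomial model, adjusted over all genes). The median body CG differences of the 5 lists were 0.076, 0.43, 0.051, -0.028 and 0.037 points in that order, against 0.070 points over all genes. Of the 2 genes of smallest p in each list, those of the silenced list differed most. Larger differences at larger p, from -6.65 points in CG upstream of a gene of the dormancy, abscisic acid and gibberellin list to 5.43 points in CHG upstream of a gene for DNA methylation, did not pass either. Upstream of FWA, a homeodomain gene silenced outside the endosperm, CHG methylation was 8.68, 4.73 and 7.94% in 48 h S, against 3.70, 0.833 and 3.55% in 0 h (adjusted p = 0.64). Upstream of QQS, an orphan gene that affects starch content, CG methylation was 91.4, 89.9 and 90.1% in 48 h S, against 94.8, 94.1 and 93.8% in 0 h (adjusted p = 0.69). In both the libraries did not overlap. In the other lists the genes of smallest p were RDR2, the RNA polymerase of RNA-directed DNA methylation, MET1, the DELLA gene RGL2, the gibberellin oxidase gene GA3OX1, the cold response genes CBF1 and COR47 and the albumin genes SESA1 and SESA2, with differences between -0.42 and 0.38 points at levels below 1%.

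The regions that the study listed as differentially methylated over the whole time course (DMRs) were chosen on all time points, these 6 libraries included, and so are no independent evidence. The deposited lists (14888 CG, 10655 CHG and 22441 CHH regions) were used whole and are longer than the sets the study kept after a filter on the size of the difference. Over 14179 tested CG DMRs the mean level was 70.02, 70.10 and 70.00% in 48 h S, against 69.75, 69.64 and 69.80% in 0 h, higher by 0.31 points without overlap. Over 10610 CHG DMRs the means were 55.7% in 48 h S and 55.5% in 0 h, and over 22041 CHH DMRs 45.4% in 48 h S and 45.6% in 0 h, both with overlap. No DMR was called between 48 h S and 0 h, which is 0% in each context (quasi-binomial model). At an unadjusted p below 0.05 there were 1007 of 14179 CG, 579 of 10610 CHG and 1571 of 22041 CHH DMRs. A single CHG DMR had an adjusted p below 0.05, and it is named after its values were seen. This DMR, chr3:15895887-15896163, lies 630 bp downstream of AT3G44170, a member of the S1 self-incompatibility protein family, and its CHG level was 52.9, 48.3 and 49.5% in 48 h S, against 33.8, 32.1 and 30.9% in 0 h (17.995 points higher, adjusted p = 0.035).

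Finally, the 2 strands of symmetric sites were compared. When the 2 strands of a CG site differ, or molecules of one strand differ, calls drawn at random disagree. At 943672 CG sites with at least 3 calls per strand in each library, 2 calls from opposite strands disagreed in 7.62, 7.68 and 7.64% of cases in 48 h S, against 7.55, 7.72 and 7.66% in 0 h. For 2 calls of the same strand the means were 7.55% in 48 h S and 7.55% in 0 h, so opposite strands disagreed more often than the same strand by 0.099 points in 48 h S and 0.095 points in 0 h, with overlap. At 886852 CHG sites the disagreement of opposite strands was 7.64% in 48 h S and 7.58% in 0 h, higher without overlap by 0.062 points, and that of the same strand was 0.058 points higher with overlap. Without 0 h replicate 1 these differences were 0.019 and 0.013 points, and with at least 2 calls per strand the libraries overlapped for opposite strands too (0.056 points). In windows with CHH of at least 5%, disagreement at CG sites was lower in 48 h S, with differences of -0.25 points for opposite strands and -0.26 points for the same strand, without overlap in either.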

How the data were processed

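MethylC-seq libraries had been made from 600 ng of genomic DNA with a 0.5% lambda spike-in and sequenced as single-end reads. The authors trimmed the reads with Trim Galore 0.4.2, aligned them to TAIR10 with Bismark 0.16.3, removed duplicates and deposited counts of methylated and unmethylated calls per cytosine and library, which are not normalized. The authors also deposited lists of DMRs, found with HOME over all time points, that hold positions only. The lambda reads were not used here. Duplicate removal leaves reads as separate fragments, but reads of methylated and unmethylated molecules can be amplified or aligned unequally, which a level over all calls carries.

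Levels are methylated calls divided by all calls. The calls were summed per 300-bp window; windows needed at least 20 calls on at least 3 cytosines of the context in each of the 15 libraries. Window classes came from the summed calls of the 9 light libraries. The all-calls change was split arithmetically into the part from window levels, at the mean shares of calls, and the part from shares, at the mean levels. Windows, gene bodies, the 1 kb upstream and DMRs were tested with a quasi-binomial model with a mean per time point, a dispersion moderated within 8 classes of information with a floor of 1, a quasi-likelihood F test and Benjamini-Hochberg adjustment; it was tested on simulated data. The prior of the dispersion had a median of 10000 degrees of freedom over windows in each context, and of 37.5 to 10000 over bodies and upstream regions. The p-values of the model therefore rest largely on the spread within classes, not on the replicates of a single window or gene. Single values were compared by exact 2-sided permutation tests. Gene models were from the RefSeq annotation of TAIR10.1, in which every cytosine position of the table matched. Named windows were the 3 of smallest p per context and direction among those with at least 20 points and no overlap; named list genes were the 2 of smallest p in each list. Genes, lists and regions were chosen with earlier results of these data known. Python 3.11.15, numpy 2.4.6, scipy 1.17.1, statsmodels 0.14.6, R 4.3.3, limma 3.58.1 and edgeR 4.0.16 were used. Alternatives covered weighting, call minimum, window size, background, the libraries in the fit, the test (limma on log2 ratios of counts and edgeR on the counts), a replicate block and the omission of each library.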

Additional observations from a re-analysis of the deposited data

How the results depend on the processing

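Between 48 h S and 0 h the all-calls difference depended on the weighting. It was -0.80, -0.63 and -0.41 points for CG, CHG and CHH, and with windows equal 0.0892, 0.0698 and 0.0300 points, while with cytosines of at least 4 calls equal, an alternative added after seeing the data, it was 0.0867, 0.0819 and 0.0840 points. Cytosines with at least 4 calls in each of the 6 libraries, weighted by calls, gave -0.340, -0.215 and -0.154 points for CG, CHG and CHH, and the libraries overlapped in each (exact permutation p = 0.3, 0.4 and 0.5). With windows equal the CG libraries overlapped for windows of at least 40 calls (0.0697 points) and of 1000 bp (0.0582), and the CHH difference was -0.0307 at 1000 bp. Subtracting the background lowered the windows-equal CG difference to 0.0437 points and that in CHG to 0.0251, and turned that in CHH to -0.0299. The number of values lower in 48 h S was 0 of 16 trinucleotides, 0 of 15 chromosome values and 5 of 24 class values with windows equal, against 16, 15 and 8 over calls. Without 0 h replicate 3, 8 of 21 feature values were lower, against 13 with it. For CG sites the opposite minus same strand difference was -0.0018 points with at least 2 calls and 0.0067 with at least 5, that of the same strand -0.068 with at least 5, and the CHG opposite minus same difference 0.0108 with at least 5. With no minimum difference 2 CHG bodies, 1 CHH body and 1 CG upstream region passed.

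Leaving out each library in turn gave all-calls differences of -1.01 to -0.50 points for CG, -0.79 to -0.39 for CHG and -0.50 to -0.25 for CHH, and windows-equal differences of 0.072 to 0.116, 0.044 to 0.105 and 0.0018 to 0.080. The number of windows called stayed 0 in each context under every alternative run, with the replicate block included (0 called in CG, CHG and CHH; with no minimum difference 2 CHH windows passed with the block, 9 without 0 h replicate 1 and 2 without 0 h replicate 3). Same-numbered libraries did not visibly deviate together over windows (correlations of -0.0066 to 0.0098, against -0.0101 to 0.0131 for other numbers). Counting error in single windows weakens such correlations, so they cannot decide whether the numbers pair the samples. Leaving out windows like the mitochondrial genome changed no call. Depth limits single windows: the shallowest of the 6 libraries had a median of 73 CG, 77 CHG and 369 CHH calls per tested window.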
